A study of Mus musculus with 6 samples.

Results

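The phagocyte NADPH oxidase was followed through 5 of its subunit genes, Cyba, Cybb, Ncf1, Ncf4 and Rac2, in mouse acute myeloid leukemia blasts. The genes were taken by name as subunits of this enzyme, and they are 5 of 53458 genes in the summed tables. All 5 passed the filter on low counts, which left 20654 genes for testing. RNA sequencing compared 3 libraries with the G643W allele of Asxl1 on both chromosomes (Asxl1 G643W/G643W, here G643W) and 3 libraries with wild-type Asxl1 (Asxl1 WT, here WT). All 6 libraries carry the Cebpa-/p30 genotype on the C57/BL6 strain, so a Cebpa defect is shared by both groups. Asxl1 encodes a chromatin regulator mutated in myeloid malignancies, and Cebpa encodes a transcription factor of granulocyte development of which the p30 allele yields only the shorter isoform. The blasts were bone marrow cells of leukemic mice, sorted as CD45.2+ with low Mac1 and Gr1 and free of Ter119, B220 and CD3. The labels are silent on age, sex, pooling of animals and whether the libraries stem from separate primary leukemias. The p-values therefore measure no more than the variation among these libraries, some of it possibly technical.

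The oxidase moves electrons from NADPH across a membrane to oxygen and so makes superoxide, the source of the oxidants that neutrophils and macrophages use to kill microbes. Its core is a membrane heterodimer of gp91phox (Cybb) and p22phox (Cyba). In resting cells p47phox (Ncf1) and p40phox (Ncf4) wait in the cytosol, and on activation they dock on the heterodimer together with a GTP-bound Rac, which in neutrophils is mainly Rac2. Inherited loss of a subunit causes chronic granulomatous disease in humans, and expression of the complex is known to increase as myeloid precursors mature.

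Cyba lies on chromosome 8 at 122424776 to 122432930 (minus strand), Cybb on chromosome X at 9435252 to 9487771 (minus), Ncf1 on chromosome 5 at 134220053 to 134229625 (minus), Ncf4 on chromosome 15 at 78244801 to 78262580 (plus) and Rac2 on chromosome 15 at 78559167 to 78572783 (minus), all in GRCm38. The promoters of the members that the RefSeq table holds, 3 of 5, are printed because these genes shared their 3 highest libraries and because PU.1 and interferon-regulatory factors are known to act on human CYBB. Each window runs from 250 bases before the RefSeq start to 50 bases from the start on (GRCm38.p6), and capitals mark matches on either strand to GAGGAA (PU.1 core) or GAAANNGAA (interferon response).
Cyba promoter (chr8:122432891-122433190, minus): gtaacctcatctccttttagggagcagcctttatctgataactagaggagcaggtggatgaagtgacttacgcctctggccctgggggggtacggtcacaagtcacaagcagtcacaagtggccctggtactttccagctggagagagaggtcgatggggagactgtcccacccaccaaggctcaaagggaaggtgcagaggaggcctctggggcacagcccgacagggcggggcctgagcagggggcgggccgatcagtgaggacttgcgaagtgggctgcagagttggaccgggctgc
Cybb promoter (chrX:9469275-9469574, minus): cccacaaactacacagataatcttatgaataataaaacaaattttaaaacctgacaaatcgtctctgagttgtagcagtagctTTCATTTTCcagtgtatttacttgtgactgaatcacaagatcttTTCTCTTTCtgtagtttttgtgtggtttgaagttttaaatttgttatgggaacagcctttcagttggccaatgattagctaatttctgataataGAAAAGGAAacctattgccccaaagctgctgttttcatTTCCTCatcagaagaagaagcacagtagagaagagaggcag
Ncf1 promoter (chr5:134229576-134229875, minus): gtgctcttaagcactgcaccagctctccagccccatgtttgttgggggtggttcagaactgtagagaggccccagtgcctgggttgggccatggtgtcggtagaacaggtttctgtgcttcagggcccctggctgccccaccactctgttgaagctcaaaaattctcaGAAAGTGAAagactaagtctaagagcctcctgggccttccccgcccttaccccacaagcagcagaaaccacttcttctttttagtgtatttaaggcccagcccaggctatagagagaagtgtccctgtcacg

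The Cybb window held 4 matches. The PU.1 core stood as TTCCTC on the reverse strand at positions 10 to 15, counted from 1 at the start. The interferon-response letters stood as TTCATTTTC from 167 to 159 bases before the start, as TTCTCTTTC from 123 to 115 bases before it, and as GAAAAGGAA from 29 to 21 bases before it. The Ncf1 window held 1 match, GAAAGTGAA, from 82 to 74 bases before the start, and the Cyba window held 0. No match overlapped another, and TTNNGNAA (C/EBP) was found in 0 of the 3 windows. Over 32851 promoters of the same length, 28.3% held GAGGAA, 8.56% held GAAANNGAA and 40.7% held TTNNGNAA, so each motif is common and a match describes letters only. The RefSeq start lay 10 bases from the start of the most-read annotated transcript for Cyba and coincided with it for Cybb and Ncf1.

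The mean of each of the 5 subunits was higher in G643W blasts than in WT blasts, from 1.22-fold for Cyba to 2.45-fold for Ncf4, but for every subunit the genotypes overlapped and 0 of 5 passed the test. Over all genes 0.121% passed it, 25 of 20654, of which 11 were higher and 14 lower in G643W blasts. The test was edgeR's quasi-likelihood test with Benjamini-Hochberg adjustment over all genes tested and a threshold of 0.05. Rac2 was the 1 member with an unadjusted p under 0.05, beside 9.66% of all genes, and DESeq2 called 0 members, with 2 at an unadjusted p under 0.05, beside 2.07% of genes called and 12.5% at an unadjusted p under 0.05. Every G643W library stood above every WT library for 0 of 5 members both by CPM and by TPM summed over a gene's transcripts, beside 7.05% of all genes by CPM and 9.61% by TPM. The median log2 difference over all genes was -0.01, and 49.2% of genes had a positive one. Rac2's log2 difference was exceeded by 6.2% of genes and Ncf4's by 5.24%.

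**Figure D1:**
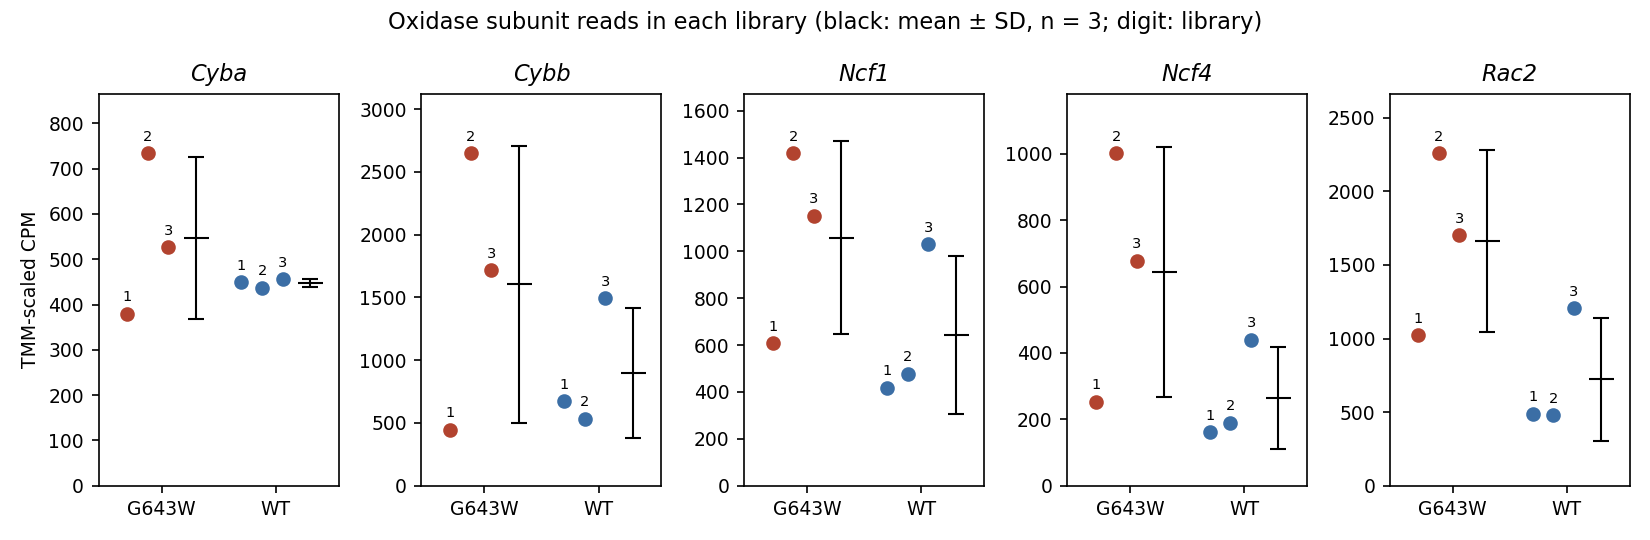
Reads of the 5 subunits in each library, in TMM-scaled CPM (y axis, a separate scale for each gene), G643W libraries left in red and WT libraries right in blue, with the library number above each point and the mean ± SD of 3 libraries in black. G643W 2, G643W 3 and WT 3 are the highest libraries for each subunit, and G643W 1 stands below WT 3 in each.

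Among the membrane subunits, Cyba, whose p22phox stabilises gp91phox and carries the docking site for p47phox, differed least between genotypes. Values per library are in CPM, the reads of a gene relative to the TMM-scaled library total, a unit not scaled to gene length. Cyba had 380, 734 and 527 CPM in G643W libraries 1 to 3, against 449, 437 and 456 CPM in WT libraries 1 to 3. The WT libraries lay within 1.04-fold of each other and the G643W libraries within 1.93-fold, with G643W 1 below all WT libraries and the other two G643W libraries above them. The means were 547 ± 178 CPM in G643W blasts and 447 ± 9.91 CPM in WT blasts (SD, n = 3 each), a log2 difference of 0.29 ± 0.29 (SE) with an edgeR adjusted p of 0.701. Without G643W 2 the log2 difference was 0.02.

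Cybb encodes gp91phox, the flavin- and heme-bearing chain through which electrons pass, and it was the most variable of the 5 within a genotype. Cybb had 444, 2648 and 1718 CPM in G643W libraries 1 to 3, against 674, 534 and 1494 CPM in WT libraries 1 to 3. G643W 1 was the lowest of all 6 libraries and G643W 2 the highest, 5.97-fold apart within 1 genotype, while the WT libraries spanned 2.8-fold. The means were 1603 ± 1107 CPM in G643W blasts and 900 ± 519 CPM in WT blasts (SD, n = 3 each), a log2 difference of 0.83 ± 0.68 (SE) with an edgeR adjusted p of 0.647. The difference was 0.27 without G643W 2 and 1.51 without WT 3, and it stayed between 0.60 and 0.94 under other scaling, filters, units, tools and the replicate block.

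Because the heterodimer needs both chains, their ratio was taken within each library, in TPM, a unit scaled to transcript length and library total, summed over all transcripts of each gene. The Cybb to Cyba TPM ratio was 0.162, 0.476 and 0.433 in G643W libraries 1 to 3, against 0.209, 0.162 and 0.435 in WT libraries 1 to 3. The ratio was highest in G643W 2, WT 3 and G643W 3 and lower in the other 3 libraries, so the high and low libraries did not follow genotype. Its mean log2 was -1.63 ± 0.86 in G643W blasts and -2.03 ± 0.74 in WT blasts (SD, n = 3 each), a difference of 0.39 with a two-sided exact permutation p of 0.7, where 0.1 is the smallest p that 3 against 3 allows. Cybc1, a chaperone needed for a stable heterodimer, had 75.2, 112 and 108 CPM in G643W libraries 1 to 3, against 105, 135 and 113 CPM in WT libraries 1 to 3. It did not share the subunits' order, with a log2 difference of -0.26 ± 0.23 (SE) and an edgeR adjusted p of 0.674.

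Ncf1, the organiser that is phosphorylated on activation and bridges the cytosolic subunits to p22phox, had 607, 1418 and 1151 CPM in G643W libraries 1 to 3, against 418, 478 and 1029 CPM in WT libraries 1 to 3. G643W 2 and G643W 3 were highest and WT 3 came next, above G643W 1. The means were 1058 ± 413 CPM in G643W blasts and 642 ± 337 CPM in WT blasts (SD, n = 3 each), a log2 difference of 0.72 ± 0.47 (SE) with an edgeR adjusted p of 0.588. Ncf1 shares 408 exon bases with Gtf2ird2 on the opposite strand. The sources used here do not say if strand entered the counting. Gtf2ird2 had 1773, 3412 and 2864 estimated reads in G643W libraries 1 to 3 and 1465, 1453 and 2726 in WT libraries 1 to 3, the same 3 libraries being highest. How far reads passed between these genes was not tested.

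Ncf4, whose p40phox binds a phosphoinositide of the phagosome membrane, had the largest fold difference of the 5. Ncf4 had 253, 1002 and 678 CPM in G643W libraries 1 to 3, against 161, 190 and 440 CPM in WT libraries 1 to 3. The overlap came from WT 3 above G643W 1, while the 2 highest libraries were G643W and the 2 lowest WT. The means were 644 ± 376 CPM in G643W blasts and 263 ± 153 CPM in WT blasts (SD, n = 3 each), a log2 difference of 1.29 ± 0.59 (SE) with an edgeR adjusted p of 0.531. It was 1.97 without WT 3 and 0.82 without G643W 2, and the adjusted p stayed above 0.05 in both.

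Rac2, the blood-cell Rac GTPase that switches the assembled complex on, had the lowest p of the 5. Rac2 had 1023, 2259 and 1703 CPM in G643W libraries 1 to 3, against 490, 477 and 1207 CPM in WT libraries 1 to 3. Its lowest G643W library stood above WT 1 and WT 2, and WT 3 alone stood among the G643W values. The means were 1661 ± 619 CPM in G643W blasts and 725 ± 418 CPM in WT blasts (SD, n = 3 each), 2.29-fold and a log2 difference of 1.20 ± 0.49 (SE). The unadjusted edgeR p was 0.0432 and the adjusted p 0.511. Without WT 3 the log2 difference was 1.86 ± 0.45 (SE), with an edgeR adjusted p of 0.238, and without G643W 2 it was 0.91.

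Rac1, the widely expressed relative that can replace Rac2 in the complex, had a lower mean in G643W blasts. Rac1 had 287, 302 and 322 CPM in G643W libraries 1 to 3, against 397, 396 and 344 CPM in WT libraries 1 to 3. By CPM every G643W library was below every WT library, as for 8.89% of all genes. In summed TPM the genotypes overlapped, at 150, 144 and 175 in G643W libraries against 184, 161 and 174 in WT libraries. The log2 difference of -0.32 ± 0.20 (SE) did not pass the test (edgeR adjusted p 0.582). The Rac2 to Rac1 ratio of summed TPM, chosen after the values were seen and given without a test, was 16.6, 32.2 and 22 in G643W libraries 1 to 3, against 6.29, 6.35 and 15.3 in WT libraries 1 to 3. On the most-read transcript of each gene the ratio was 2.15, 4.63 and 3.25 in G643W libraries and 0.722, 0.711 and 2.18 in WT libraries. All G643W ratios were above all WT ratios on the summed scale, while on the most-read transcripts WT 3 stood just above G643W 1.

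**Figure D2:**
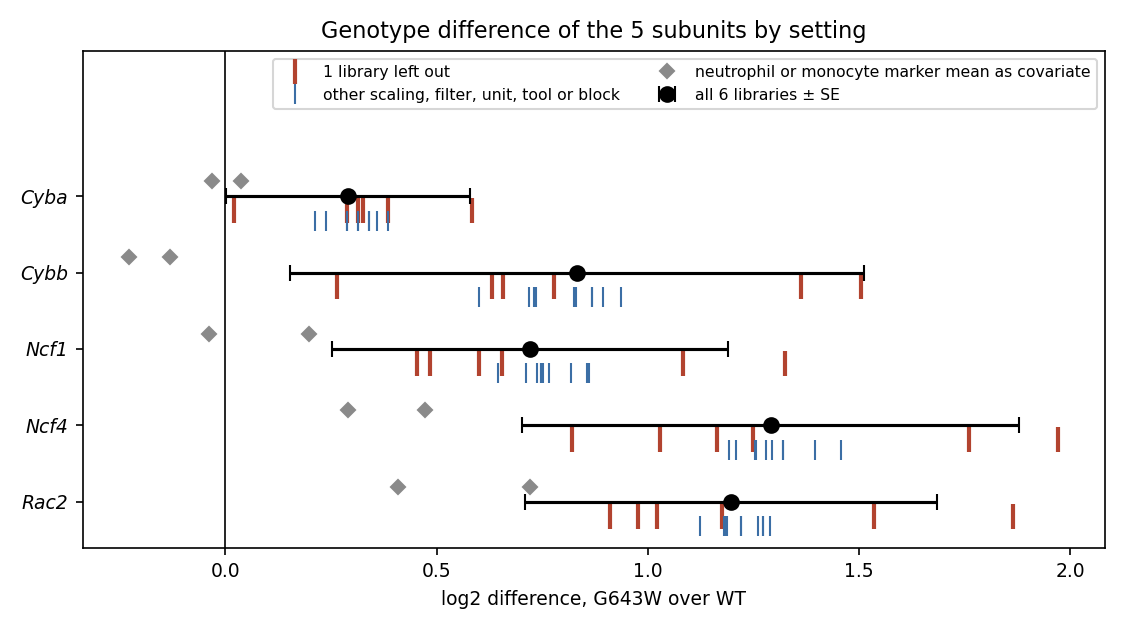
Difference of each subunit between genotypes (x axis, log2 of G643W over WT), with the value over all 6 libraries ± SE in black, values with 1 library left out in red, values under other scaling, filters, units, tools or the replicate block in blue, and values with a marker mean as covariate in grey. Leaving out a library moved Cybb between 0.27 and 1.51, while Cyba, Cybb and Ncf1 reached negative values only with a marker mean as covariate.

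Levels of different genes can be compared only per length, and the scale chosen for that changed the order of the subunits. As TPM summed over all transcripts, the means over the 6 libraries were 2635 for Rac2, 563 for Ncf4, 450 for Cyba, 192 for Ncf1 and 152 for Cybb. Rac2 was highest in all 6 libraries. As TPM of each gene's most-read transcript alone, a scale chosen with the data in view, the means were 423 for Cyba-201, 159 for Rac2-201, 146 for Cybb-201, 127 for Ncf1-202 and 57 for Ncf4-201. Cyba was then highest and Ncf4 lowest in all 6 libraries, and Rac2, Cybb and Ncf1 changed places from library to library. On the summed scale Cybb and Ncf1 were neighbours. Their means were 195 ± 123 and 242 ± 79.7 TPM in G643W blasts and 108 ± 65.6 and 142 ± 84.9 TPM in WT blasts (SD, n = 3 each). Within libraries, Ncf1 was above Cybb in all but G643W 2, where Cybb had 301 and Ncf1 300 TPM. The difference between the 2 genes was not tested.

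The gap between the scales came from short annotated transcripts. Rac2-203, of 254 bases, held 10.7% to 11.6% of Rac2's estimated reads over the 6 libraries but 82.2% to 85.2% of its TPM, since Salmon's effective length for it was 26.46 to 28.52 bases. Of its 254 bases, 243 lie inside exons of the 3038-base Rac2-201, which held 77.6% to 79% of the reads and 5.63% to 6.2% of the TPM. Ncf4 showed the same on a smaller scale. Its 336-base retained-intron transcript Ncf4-204 shares 288 bases with Ncf4-201 and held 12.9% to 13.7% of reads and 48.6% to 51.3% of TPM. The 1464-base Ncf4-201 held 36% to 42.7% of Ncf4's reads in G643W libraries and 33.7% to 38% in WT libraries, an overlap of genotypes. Ncf1-202 held 87.8% to 90.3% of Ncf1's reads and 63.3% to 68.2% of its TPM. The 690-base retained-intron Ncf1-207 held 5.26% to 6.63% of these reads and 23.4% to 28.8% of this TPM. Cyba-201 held 94.5% to 95.7% of its gene's reads and Cybb-201 99.3% to 99.8%, so the reads of Cyba and Cybb lay almost wholly on 1 transcript each. Cybb-204, annotated for nonsense-mediated decay and contained in exons of Cybb-201, was given 0, 73.8 and 540.7 estimated reads in G643W libraries 1 to 3, against 8.536, 0 and 21.36 in WT libraries 1 to 3. G643W 3 alone stood apart there, at 0.424% of Cybb's reads or less.

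**Figure D3:**
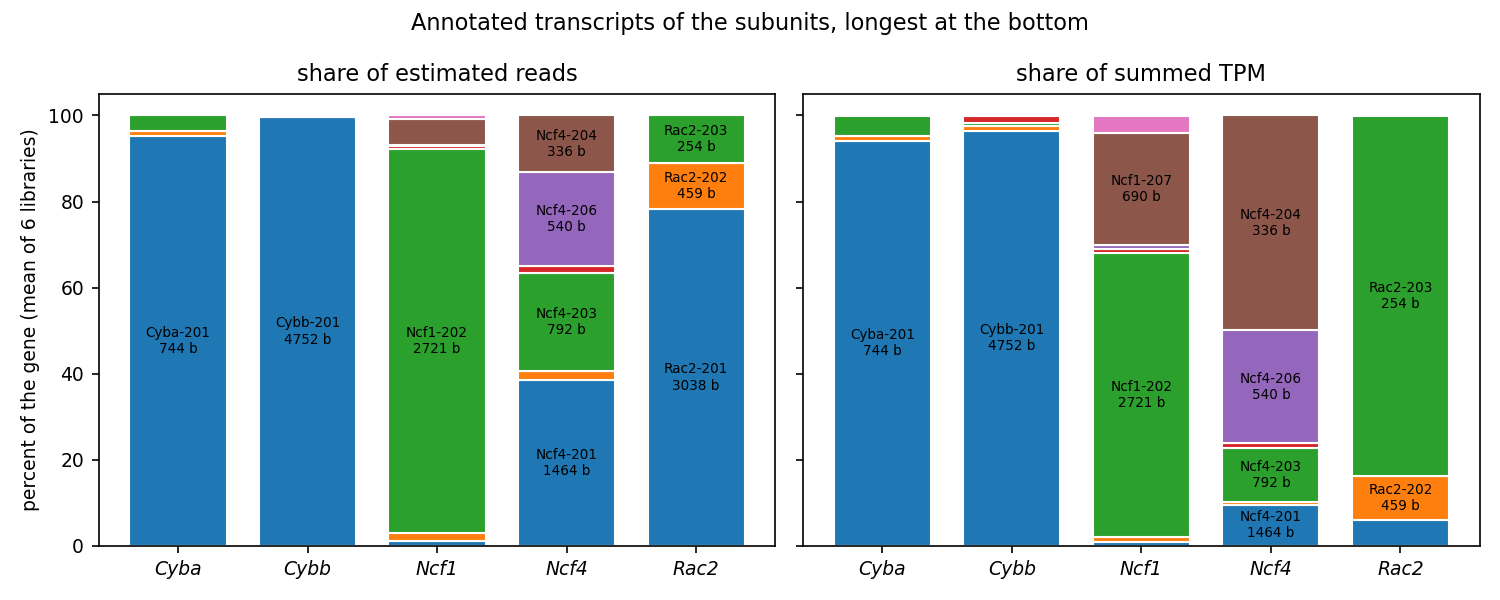
Share of each annotated transcript in its gene (y axis, percent, mean of 6 libraries), counted in estimated reads on the left and in summed TPM on the right, with the longest transcript at the bottom of each bar and the larger segments named with their length in bases. Rac2-203 and Ncf4-204 take a small share of the reads and most or about 50% of the TPM.

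For Rac2 and Ncf4 the overlap of genotypes did not turn on this scale, unlike that of the Rac2 to Rac1 ratio. In summed TPM, Rac2 was 2492, 4638 and 3842 in G643W libraries 1 to 3, against 1159, 1024 and 2653 in WT libraries 1 to 3. On Rac2-201 alone it was 148, 281 and 238 TPM in G643W libraries, against 65.3, 58 and 163 TPM in WT libraries. Ncf4 was 349, 1167 and 872 summed TPM in G643W libraries, against 211, 223 and 554 in WT libraries, and Ncf4-201 was 30.8, 126 and 95.4 TPM against 16.8, 20.5 and 52.4 TPM. WT 3 stood above G643W 1 for each gene on both scales. Two-sided exact permutation p-values for the difference of mean summed TPM were 0.3 for Cyba, 0.3 for Cybb, 0.2 for Ncf1, 0.2 for Ncf4 and 0.2 for Rac2.

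The subunits shared their high libraries across the genotypes. G643W 2, G643W 3 and WT 3 were the 3 highest libraries, in that order, for each of the 5 subunits. For Cyba the place of WT 3 rested on a small gap, since its WT libraries lay within 1.04-fold of each other. On log2 CPM centred on the mean of the 6 libraries, Cybb stood at -1.19, 1.39 and 0.76 in G643W libraries 1 to 3, against -0.59, -0.93 and 0.56 in WT libraries 1 to 3. Rac2 differed mainly in G643W 1, with 0.01, 1.15 and 0.74 in G643W libraries against -1.05, -1.09 and 0.25 in WT libraries. The root mean square difference of such profiles over the 6 libraries was smallest for Ncf1 with Rac2 and for Ncf4 with Rac2, 0.273 each, and largest for Cyba with Ncf4, 0.738. These are descriptions over 6 libraries that differ in depth and in the levels of cell type markers. A gene with a flat profile such as Cyba is near other flat genes by this measure.

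**Figure D4:**
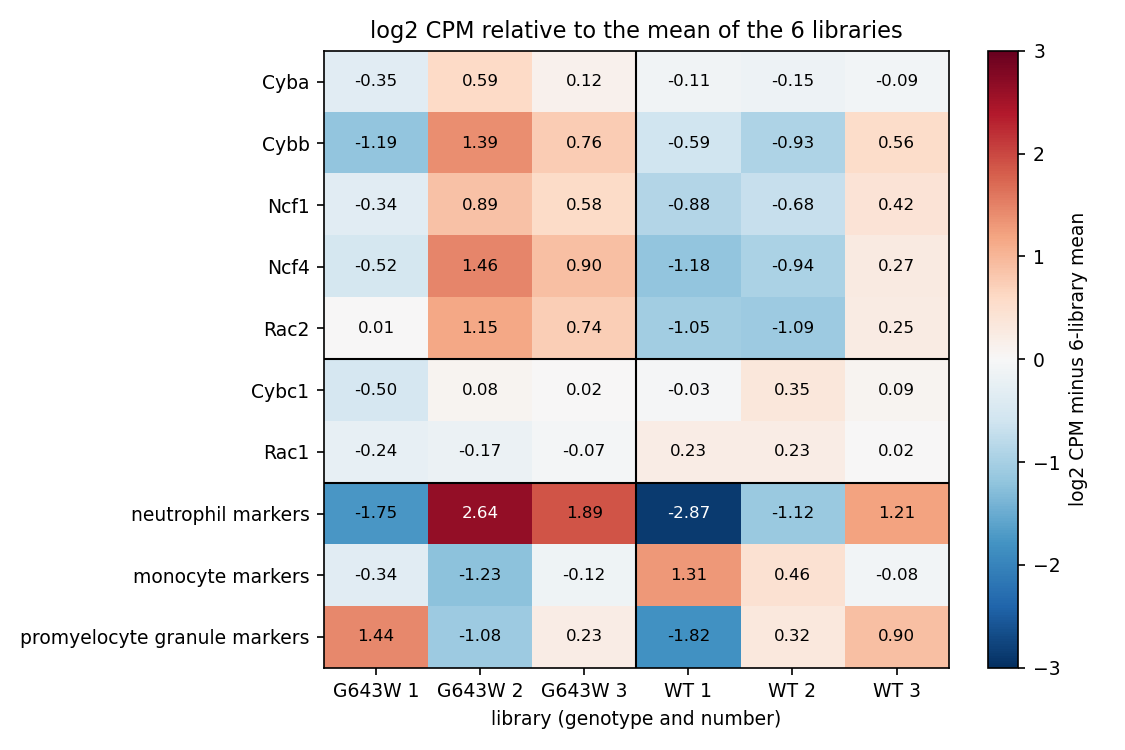
Log2 CPM of the 5 subunits, of Cybc1 and Rac1, and mean log2 CPM of 3 marker lists (rows), each relative to its own mean over the 6 libraries, by library (columns, G643W left of WT). G643W 2, G643W 3 and WT 3 are above 0 for the neutrophil markers and for 4 of the 5 subunits, and Cyba in WT 3 is at -0.09.

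Most markers of maturing neutrophils varied over the same libraries. Of 15 neutrophil markers, 15 were tested and 0 called, with a median log2 difference of 1.68, and their summed level was 38666, 218538 and 139939 TPM in G643W libraries 1 to 3, against 44462, 41169 and 91969 TPM in WT libraries 1 to 3. None was under 0.1 TPM in all libraries. Chil3 made up most of the sum in G643W 1, WT 1 and WT 2. It was the 1 marker of the list with a negative log2 difference, -0.07. Its levels were 22351, 32631 and 24963 TPM in G643W libraries and 41737, 27593 and 12688 TPM in WT libraries, highest in WT 1 and lowest in WT 3. S100a8, a calcium-binding protein abundant in neutrophils, was at 5858, 46115 and 30414 TPM in G643W libraries and at 606, 3734 and 18144 TPM in WT libraries. Itgam, which encodes the Mac1 chain used in the sort, was at 61.8, 321 and 318 TPM in G643W libraries, against 57.6, 46.8 and 199 TPM in WT libraries, and Ly6g, which encodes a Gr1 epitope, at 10.8, 697 and 245 TPM against 6.14, 26.8 and 294 TPM. For S100a8, Itgam and Ly6g, G643W 2, G643W 3 and WT 3 were again highest. Monocyte markers (14 of 14 tested, 0 called) had a median log2 difference of -1.40 and sums of 3830, 2814 and 3713 TPM in G643W libraries and 3890, 2617 and 4331 TPM in WT libraries. Ly6c2 made up most of these sums and was the 1 marker of the list with a positive log2 difference, 0.20, at 3253, 2577 and 3147 TPM in G643W libraries against 2105, 1569 and 3727 TPM in WT libraries. The other 13 were negative, among them F13a1 at -2.07 and Ms4a4c at -2.21. By CPM, 6 of the 14 were lower in every G643W library than in any WT library, beside 8.89% of all genes. Promyelocyte granule markers (6 of 6 tested, 0 called) summed to 6168, 770 and 2482 TPM in G643W libraries, against 853, 2616 and 4238 TPM in WT libraries, and G643W 1 was the highest there. The part of these cell types in the subunits' levels was not tested, and in bulk RNA fewer cells of a type and less RNA per cell cannot be told apart.

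With the mean log2 CPM of the neutrophil markers as a covariate, the log2 difference was 0.04 for Cyba, -0.23 for Cybb, 0.20 for Ncf1, 0.47 for Ncf4 and 0.72 for Rac2. Cybb thereby changed sign, with an SE of 0.43, larger than the value itself. Rac2 stayed highest with an SE of 0.29, an unadjusted edgeR p of 0.0428 and an adjusted p of 0.753. With the monocyte marker mean instead, Cyba (-0.03 ± 0.44, SE), Cybb (-0.13 ± 0.86) and Ncf1 (-0.04 ± 0.53) were negative. Ncf4 was at 0.29 ± 0.64 and Rac2 at 0.41 ± 0.54, and all of these values were smaller than their SE. Centred on the 6 libraries, the monocyte mean was -0.34, -1.23 and -0.12 in G643W libraries, against 1.31, 0.46 and -0.08 in WT libraries. It was thus lower in every G643W library than in any WT library, and this fit cannot fully tell it apart from genotype. Over all genes, 527 had an unadjusted edgeR p under 0.05 in this fit, against 1996 without a covariate. Macrophages also use this oxidase, and of 10 macrophage markers 8 were tested and 0 called, with a median log2 difference of -1.48 and sums of 188, 109 and 221 TPM in G643W libraries, against 334, 208 and 161 TPM in WT libraries. The dendritic cell list, 10 of 10 tested, had 2 lower calls, beside 0.121% of all genes called in either direction. By CPM, 6 of the 10 were lower in every G643W library than in any WT library, beside 8.89% of all genes. The list had a median log2 difference of -2.46, with sums of 75.4, 33.4 and 58.9 TPM in G643W libraries and 498, 271 and 186 TPM in WT libraries. The T cell list summed to at most 13.2 TPM, Cd3e (T cell) reached at most 0.219 TPM, and Pax5 (B cell) was under 0.1 TPM in all libraries.

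Asxl1 itself had 13.7, 20.2 and 15.5 TPM in G643W libraries 1 to 3, against 6.95, 3.68 and 7.15 TPM in WT libraries 1 to 3. Of this TPM the 355-base Asxl1-202 held 26.9% to 39.8% in G643W libraries and 0% to 24.6% in WT libraries, from at most 1.2% of reads. On Asxl1-201 alone the levels were 6.67, 8.97 and 9.59 TPM in G643W libraries, against 5.31, 3.03 and 4.85 TPM in WT libraries. The genotypes did not overlap on either scale. Yet the log2 difference of 0.95 ± 0.27 (SE) did not pass the test (edgeR adjusted p 0.454), and a level does not check which allele a library carries. Cebpa had 59, 5.93 and 11.5 TPM in G643W libraries, against 44.7, 64.5 and 26.9 TPM in WT libraries, with a log2 difference of -1.16 ± 0.81 (SE) and an edgeR adjusted p of 0.607. Cebpa was lowest in G643W 2 and G643W 3, the libraries with the highest Cybb, and a link between these genes was not tested.

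Protein-coding genes with at least 1 TPM on average, 10176 of them, were ranked by likeness to each subunit's profile, as the root mean square difference of centred log2 CPM over the 6 libraries. Nearest to Ncf4 were Triobp (0.0658), an actin-binding protein gene, and Pi16 (0.114), and Triobp had 96.4, 372 and 265 CPM in G643W libraries against 66.7, 68.2 and 172 CPM in WT libraries. Nearest to Cybb were Pitpnm1 (0.127) and Ccdc63 (0.131), and nearest to Rac2 were Tmem63a (0.127) and Gas7 (0.149). Ncf1 was nearest to Zdhhc18 (0.0831), a palmitoyltransferase gene, and Atp8a1 (0.0899), a phospholipid flippase gene. Cyba was nearest to Ilk (0.0508), the integrin-linked kinase gene, and Zfand2b (0.0538).

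Around the enzyme, 0 genes passed edgeR's test in each of the 5 lists given here, which held 1, 2, 4, 7 and 1 genes with an unadjusted p under 0.05 in the order of their description, out of 9, 34, 24, 37 and 21 tested and beside 9.66% of all genes. DESeq2 called 1, 0, 3, 2 and 0 of their genes, beside 2.07% of all genes. Where genotypes are said not to overlap, the share over all genes was 7.05% higher and 8.89% lower in G643W by CPM, and 9.61% higher and 5.84% lower by TPM. Of the other oxidase and Nox family genes 9 of 15 were tested, and Nox3, Noxa1, Duox1, Duox2, Duoxa1 and Duoxa2 did not pass the filter on low counts. In this list 5 differences were positive and 4 negative, with a median log2 difference of 0.07. Rac3, a Rac GTPase best known from brain, had the lowest p, with 0.48 ± 0.0278 CPM in G643W blasts and 1.19 ± 0.0747 CPM in WT blasts (SD, n = 3 each), a log2 difference of -1.30 ± 0.39 (SE) and an edgeR adjusted p of 0.471. By CPM, Rac1 and Rac3 were the 2 genes of the list with every G643W library below every WT library. By TPM Rac3 was the 1 such gene, and Nox4 was higher in every G643W library. DESeq2 called Rac3 alone.

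The oxidase assembly and Rac signalling list, mainly kinases and Rac exchange factors, had 34 of 34 genes tested, 23 positive and 11 negative, with a median log2 difference of 0.13. Pak1, a kinase that Rac activates and that phosphorylates p47phox, had the lowest p. Pak1 had 192, 246 and 217 CPM in G643W libraries 1 to 3, against 103, 97 and 174 CPM in WT libraries 1 to 3, every G643W library being higher. Its log2 difference was 0.81 ± 0.28 (SE) with an edgeR adjusted p of 0.493. By CPM, Pak1 was the 1 gene of the list in that position, and Akt1, Vav2, Arhgdia and Btk were lower in every G643W library than in any WT library. By TPM, 6 genes were higher in every G643W library, Pak1 among them, and 0 were lower in every one, so the separation of the other genes depended on the unit.

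Of the transcription factors tied to oxidase genes, 24 of 26 were tested, 9 positive and 15 negative, with a median log2 difference of -0.18. Irf4, a regulator of dendritic and lymphoid cells, had 0.64 ± 0.168 CPM in G643W blasts and 13.3 ± 10.5 CPM in WT blasts (SD, n = 3 each), a log2 difference of -4.38 ± 0.91 (SE) with an edgeR adjusted p of 0.327. It passed edgeR's test without the filter on low counts and without WT 3. DESeq2 called Irf4 and Irf8 lower and Gata1 higher in G643W blasts. Gata1 was low throughout, with 46, 155 and 144 estimated reads in G643W libraries, against 22, 14 and 16 in WT libraries. Irf4 and Irf8 were lower in every G643W library than in any WT library, and Gata1 was higher in every one, by CPM and by TPM. Runx1 was lower in every G643W library by CPM but overlapped by TPM, and Nfkb1 was lower in every one by TPM but not by CPM. Spi1 (PU.1) and Irf8, named after their values were seen because the proteins are known to act on human CYBB, differed from each other in pattern. Spi1 had 222, 352 and 352 TPM in G643W libraries, against 234, 216 and 302 TPM in WT libraries, with a log2 difference of 0.02 ± 0.28 (SE) and an edgeR adjusted p of 0.957. Irf8, also in the monocyte marker list, had 24.1, 3.97 and 8.91 TPM in G643W libraries, against 39.6, 40.2 and 36.3 TPM in WT libraries, with a log2 difference of -1.81 ± 0.51 (SE) and an edgeR adjusted p of 0.454. Irf8 was lowest in G643W 2, where Cybb was highest, but G643W 1, with the lowest Cybb by CPM, also had less Irf8 than any WT library. A link between these genes was not tested.

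The NADPH supply and antioxidant list had 37 of 40 genes tested, 19 positive and 18 negative, with a median of 0.14. Gpx3, an extracellular glutathione peroxidase gene, had the lowest p, with 54.9 ± 16.7 CPM in G643W blasts and 25.4 ± 2.31 CPM in WT blasts (SD, n = 3 each), a log2 difference of 1.11 ± 0.28 (SE) and an edgeR adjusted p of 0.409. DESeq2 called Gpx3 and Slc7a11, both higher in G643W blasts. By CPM and by TPM, Pgd, Gsr and Gpx3 were higher in every G643W library than in any WT library, and Pgls, Me2, Sod1 and Prdx1 were lower in every one. Gpx1 and Keap1 were lower in every G643W library by CPM but overlapped by TPM. Pgd, a pentose-phosphate enzyme that makes NADPH, had 634, 1078 and 954 CPM in G643W libraries, against 356, 409 and 632 CPM in WT libraries, a log2 difference of 0.93 ± 0.33 (SE) with an edgeR adjusted p of 0.493. Of the phagocyte receptors and microbicidal genes, 21 of 22 were tested, 12 positive and 9 negative, with a median of 0.30. By CPM the genotypes overlapped for all 21, and by TPM Csf2rb was higher in every G643W library, at 104, 127 and 132 TPM in G643W libraries against 45.4, 29.1 and 88.6 TPM in WT libraries. Lyz1, a lysozyme gene, had the lowest p, with 6.16 ± 4.13 CPM in G643W blasts and 39.5 ± 30.7 CPM in WT blasts (SD, n = 3 each), a log2 difference of -2.68 ± 0.95 (SE) and an edgeR adjusted p of 0.493.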

How the data were processed

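The tools named in the submitters' processing notes are bcl2fastq and Salmon 0.12.0 and the builds GRCm38.p6 and mm10. Salmon's options and strand setting are not stated there. The authors deposited estimated counts (reads per transcript, not whole numbers) and TPM, per the file headers. Totals were 61167075, 101189225 and 76981758 estimated reads in G643W libraries 1 to 3 and 72664292, 69885969 and 76060388 in WT libraries 1 to 3, and each subunit had at least 12227 estimated reads in every library.

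Identifiers of 136176 among 136288 transcripts matched GENCODE M21 (GRCm38), and these were summed to 53458 genes. The remaining 112 took no more than 0.0365% of the reads of any library. Summed counts were rounded and filtered with filterByExpr (minimum count 10). After TMM scaling, which also gave the CPM values, edgeR 4.0.16 in R 4.3.3 tested genotype alone (quasi-likelihood, two-sided), with p-values adjusted over 20654 genes. SE is the absolute log2 difference over the square root of F. The biological coefficient of variation was 52.8%. The procedure was tested on simulated data. Mean TPM was compared by exact permutation. No libraries agreed within sampling noise.

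The members, gene lists and markers were chosen with earlier results of these data known. Named genes were the 5 members, Cybc1, Asxl1, Cebpa, the gene with the lowest p in each list where none passed, and the 2 genes nearest to each member in profile. Some results under this rule are not reported here. Genes outside it were named after their values were seen. A BLAST+ 2.17.0 search for near-identical copies (95% identity or more, 50% of the length or more) found 0 for each member. Alternatives were scaling, filters, length-scaled counts, DESeq2 1.42.0, limma 3.58.1 on log2(TPM + 1) and log2(TPM + 0.1), protein-coding genes alone, a replicate block, each library left out, and neutrophil or monocyte marker means as covariates. Counting the most-read transcript of each member alone was added with the data in view. Promoters are RefSeq's (GRCm38.p6).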

Additional observations from a re-analysis of the deposited data

How the results depend on the processing

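Over 18 alternatives, 86 of 90 member values stayed positive and 0 passed the threshold, with a lowest adjusted p of 0.151. The 4 negative log2 differences came with marker covariates, each smaller in size than its SE. They were Cybb at -0.23 with the neutrophil mean, and Cyba at -0.032, Cybb at -0.13 and Ncf1 at -0.0383 with the monocyte mean. The monocyte mean was itself lower in every G643W library than in any WT library. Leave-one-out log2 differences ranged from 0.02 to 0.58 for Cyba, 0.27 to 1.51 for Cybb, 0.45 to 1.32 for Ncf1, 0.82 to 1.97 for Ncf4 and 0.91 to 1.86 for Rac2, each lowest without G643W 2 and highest without WT 3, except Cyba, highest without G643W 1. Of all genes, 25 passed the test with all libraries and 0 (without WT 2) to 16 (without G643W 1) with 1 left out. The count was 16 with library totals alone, 104 without a filter, 10 with length-scaled counts, 427 by DESeq2, 43 by limma on log2(TPM + 0.1), 2 among protein-coding genes alone and 4 with the monocyte covariate. The higher and lower calls were 11 and 14 by edgeR, 13 and 7 by limma on log2(TPM + 1), 8 and 2 with length-scaled counts and 8 and 8 with library totals alone. With the replicate block, 0 genes passed the test, 1772 having an unadjusted p under 0.05, and the members stood at 0.24 (Cyba), 0.60 (Cybb), 0.75 (Ncf1), 1.21 (Ncf4) and 1.26 (Rac2). Same-numbered libraries deviated from their group means with correlations of 0.112, -0.165 and 0.176. With 3 libraries per genotype such correlations cannot settle whether the numbers pair the samples. The causes of these shifts were not tested.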
